A study of Mus musculus with 12 samples.

Results

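The change in gene expression between birth (P0) and postnatal day 5 (P5) was measured in mice lacking NR3B, an NMDA receptor subunit whose gene is Grin3b. The members were the 3 P0 knockout samples and the 3 P5 knockout samples, chosen by their titles, which make 6 of the 12 samples of the series. The other 6 samples came from wild-type mice at the same ages, again 3 at each, and entered the fit as a further pair of groups. Every sample was total RNA from tissue that the labels call brain, hindbrain and spinal cord, read on an Affymetrix array, whose probe sets are groups of short probes for a transcript. The labels give neither the strain nor the part of the gene that was removed. They also do not say how much of each region a sample held, or whether the numbered samples came from separate animals, so p-values reflect the differences among these samples only, some of which may be technical.

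In the first days after birth the mouse hindbrain and spinal cord pass through overlapping events. Oligodendrocytes begin to wrap axons in myelin, astrocytes mature, and in the cerebellum the granule cell precursors divide under the influence of Sonic hedgehog released by Purkinje cells. Motor neurons and the neurons of the spinal cord and medulla have by then left the cell cycle, and their position along the body axis is recorded by Hox transcription factors. NR3B itself is a glycine-binding subunit known from motor neurons.

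Levels are given as log2(signal + 16), quantile-normalized on that scale, and a difference is the mean of the P5 samples minus the mean of the P0 samples. A gene was represented by its brightest probe set and was called when limma's Benjamini-Hochberg adjusted p over all probe sets was under 0.05. The level that 40% of probe sets lie under, 8.72, serves as a mark for dim probe sets, whose fold changes are the least certain on this scale.

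With the scaling as deposited, the knockout arrays had median signals between 607 and 737, the lowest in P0 knockout sample 3. Samples of a group differed more at P0 than at P5, with a median SD over genes of 0.21 in P0 knockout and 0.133 in P5 knockout (n = 3 each). The sexes were not balanced, as Xist, expressed from the inactive X chromosome, was high in P0 knockout samples 1 and 2 (13.15 and 14.00) and in P5 knockout sample 2 (13.67). It was between 8.30 and 9.23 in the other knockout samples, in which the Y-linked Eif2s3y was between 12.39 and 12.84. In wild type Xist was high in P0 samples 1 and 2 (12.18 and 13.55) and between 8.38 and 9.18 in the others. In those others Eif2s3y was between 12.28 and 12.73. They include every P5 wild-type sample, so age and sex cannot be fully told apart in the wild-type change or the interaction. Markers of forebrain cortex were mixed, since 5 of the 15 read lay at or under 8.72 in all 6 knockout samples, 8 lay above it in all 6 and 2 on both sides. Among the dim genes were Emx1 and Tbr1, both forebrain transcription factors, and Fezf2, a marker of deep cortical neurons. Among the bright ones Neurod6, a marker of cortical neurons, read between 11.51 and 12.24 and Mef2c, a transcription factor also found in muscle and other neurons, between 11.46 and 13.61. Emx1, Fezf2 and Neurod6 were named after their values were seen.

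The probe set of the targeted gene Grin3b, on chromosome 10, read 5.59, 5.69 and 6.96 in the P0 knockout samples and 5.95, 5.93 and 5.91 at P5. All 6 values were under the mark for dim probe sets and the age groups overlapped. The difference was -0.15 (SE 0.49, limma adjusted p = 0.931; two-sided exact permutation p = 1.0, where 3 samples against 3 cannot go below 0.10). The wild-type means were 8.19 at P0 and 7.68 at P5. The sources used here do not say whether this probe set lies within the deleted part.

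Between P0 and P5 the knockout tissue gained transcripts of myelin, of cell division and of the cerebellar granule cell lineage. It lost transcripts of Hox genes and of several genes of motor, sensory and spinal neurons. Of 18193 genes read, 521 were higher at P5 (2.86% of all genes) and 347 were lower (1.91%). The rises were the larger changes, since 267 genes rose and 76 fell by at least 2-fold, while the median difference over all genes was -0.03. All 868 called genes had P5 samples that did not overlap the P0 samples, against 12% of all genes not overlapping in the higher direction and 14.8% in the lower. The calls were made on the same samples, so this separation adds no support to them. The sample number limits the counts of called genes. Without P5 knockout sample 1, 2 or 3 the higher genes numbered 316, 264 and 278 and the lower genes 156, 115 and 122, and without P0 knockout sample 2 or 3 the lower genes numbered 203 and 171. Lower genes numbered 580 without P0 wild-type sample 2. With Y-linked signal as a covariate, chosen after seeing the data, 419 genes were higher and 279 lower. In tissue RNA, fewer cells of a type and less RNA per cell cannot be told apart.

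**Figure D1:**
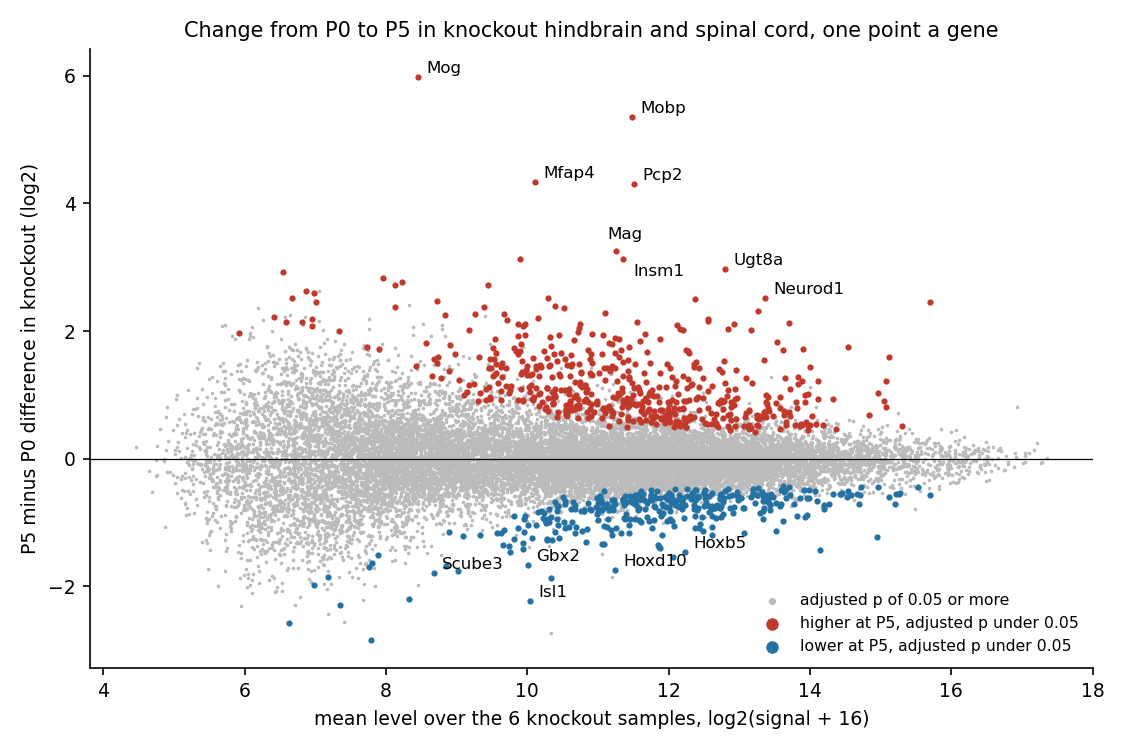
Each point is a gene, placed by its mean level over the 6 knockout samples, log2(signal + 16), and by its P5 minus P0 difference in knockout (log2). The 521 higher genes (red) reach 5.97 for Mog, while Isl1, the largest fall among genes above the middle level of the arrays, lies at -2.23, and the calls thin out among dim genes.

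Among the 12 largest rises, the myelin genes Mog and Mobp came first, followed by Mfap4 and Pcp2 (4.33 and 4.31), which are not myelin genes. The myelin list also gave Mag, Ugt8a and Gjb1 to these 12. Mobp, a structural protein of central myelin, read 7.55, 9.49 and 9.36 in the P0 samples and 13.88, 14.38 and 14.20 at P5. Its P0 samples were spread over almost 2 log2 units, with sample 1 lowest, and all lay more than 4 units under every P5 sample. The difference was 5.36 (SE 0.45, 41.0-fold, limma adjusted p = 1.18e-05), and 3 of its 4 other probe sets were also called higher. Mog, a glycoprotein on the outer face of the sheath, rose from 6.99, 4.997 and 4.42 to 11.09, 11.55 and 11.68. Its P0 values all lay among the dim probe sets, so the difference of 5.97 (SE 0.52, limma adjusted p = 1.5e-05) depends on readings near the lower end of the scale.

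Mag, an adhesion molecule between the axon and the innermost myelin layer, read 9.44, 9.53 and 9.90 at P0 and 12.72, 12.84 and 13.06 at P5. The samples of each age lay within 0.5 of each other, and the difference of 3.25 (SE 0.16, 9.52-fold) had an adjusted p of 1.17e-07 in limma. Ugt8a, the enzyme that makes the myelin lipid galactosylceramide, went from 11.02, 11.51 and 11.42 to 14.21, 14.27 and 14.37, a difference of 2.96 (SE 0.14, limma adjusted p = 7.82e-08). Cnp, an enzyme of non-compact myelin, rose by less, from 14.18, 14.45 and 14.33 to 15.82, 16.09 and 15.84, a 3.02-fold change (limma adjusted p = 1.15e-05). Gjb1, a gap junction protein of oligodendrocytes, was dim at P0 (6.55, 6.88 and 6.86) and read 9.49, 9.17 and 9.81 at P5. Mbp, the basic protein that compacts the membrane, was chosen after its values were seen. It rose from 14.02, 14.98 and 14.39 to 16.85, 16.96 and 16.96, a 5.50-fold difference (limma adjusted p = 2.13e-05).

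As a group, 19 of the 22 myelin genes read were called higher and 0 lower, with a median difference of 1.62 against -0.03 over all genes. All 22 had a positive difference, from 0.06 to 5.97. Between 17 and 20 members were called under each of the 23 alternative analyses. The list's mean level was 10.62, 10.87 and 10.71 in the P0 samples and 12.61, 12.75 and 12.81 at P5, with nothing between. Pmp22, the main myelin protein of the Schwann cell that could have come with spinal nerves, had a difference of 1.27 that was not called, and was named after its values were seen.

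The regulators of the oligodendrocyte lineage had smaller differences than the myelin genes. Myrf, the transcription factor that starts myelin gene expression, read 9.76, 9.89 and 10.62 at P0 and 10.79, 11.31 and 11.20 at P5, a 2.01-fold rise (limma adjusted p = 0.0287). Sox10, needed throughout the lineage, read 10.09, 11.18 and 11.05 and then 11.78, 11.94 and 11.68, a 2.04-fold rise (limma adjusted p = 0.0336). Gpr17, a receptor of cells about to mature, rose from 12.65, 12.36 and 12.28 to 13.50, 13.20 and 13.26 (1.85-fold, limma adjusted p = 0.00296). None of the 3 genes had overlapping ages, although P0 sample 3 lay near the P5 samples for Myrf. Of 15 lineage genes read, 5 were called higher and 0 lower, with a median of 0.59. That count was 1 without P5 knockout sample 2 or 3, 2 without P5 knockout sample 1, and 3 without P0 knockout sample 1 or 2. Without a P5 wild-type sample it was 2 or 3, and without P0 wild-type sample 2 it was 9. Cholesterol synthesis, on which myelin membrane draws, had 1 of 20 genes called, the sterol carrier Stard4 at 1.68-fold (limma adjusted p = 0.00835), and a median of 0.12. That count was 0 without P5 knockout sample 2 or 3.

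Astrocyte genes rose in part. Gfap, the intermediate filament of astrocytes, read 12.31, 12.97 and 12.64 in the P0 samples and 14.68, 14.77 and 14.82 at P5. The P5 values lay closer together than the P0 values, and the difference was 2.12 (SE 0.15, 4.34-fold, limma adjusted p = 3.05e-06), with both other probe sets called higher. Aqp4, the water channel of astrocyte endfeet, went from 14.50, 14.51 and 14.39 to 15.64, 15.83 and 15.60 (2.33-fold, limma adjusted p = 0.000108). The glutamate transporters Slc1a2 and Slc1a3 rose 1.91-fold and 1.73-fold (limma adjusted p = 0.000911 and 0.00073). Of the 4 other probe sets of Slc1a2, 0 were called, with differences from 0.324 to 1.458. Of the 5 others of Slc1a3, 1 was called, with differences from -0.035 to 0.845. Of 24 genes, 8 were called higher and 0 lower, the median was 0.38, and 7 to 9 were called under the alternatives.

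Markers of the other cell types of the tissue gave few calls by number. Over all genes 2.86% were called higher, and the shares for microglia and endothelium lay above that. For microglia, 3 of 19 genes were called higher, with a median of 0.36. P2ry12, their purinergic receptor, rose from 10.50, 10.91 and 10.55 to 11.99, 11.83 and 11.80 (2.33-fold, limma adjusted p = 0.00103). The count of 3 was 1 without P0 knockout sample 3 or without any of the P5 knockout samples. The median was 0.21 without P0 knockout sample 1 and 0.58 without P0 knockout sample 2. Endothelium had 2 of 18 genes called, Esam and Cldn5, both of the junctions between endothelial cells, at 1.49-fold and 1.34-fold. Esam was called in 10 of the 23 alternatives and Cldn5 in 8, and the count was 0 without P0 knockout sample 1 or 2, any P5 knockout sample or any P5 wild-type sample, and with the 6 knockout samples alone. Meninges, pericytes and fibroblasts had 1 of 25, the pericyte gene Rgs5 at 2.31-fold (limma adjusted p = 0.00616), and all 3 of its other probe sets were called. That count was 2 without P0 knockout sample 2 or P0 wild-type sample 1 or 2. Red blood cell genes had 1 of 11, Slc4a1, the anion exchanger of the red cell membrane, at 3.67-fold, with other probe sets at -1.03 and 2.13. Choroid plexus and ependyma had 0 of 16 called, and the list had a median of 0.70. That median was 0.38 without P0 knockout sample 1 and 0.34 without sample 2, and the list's mean level in P0 knockout sample 3 (10.71) lay above every P5 knockout sample (10.48 to 10.60). Muscle, cartilage and skin had 1 of 16, the cartilage collagen gene Col9a1 at 2.22-fold, which was not called without P5 knockout sample 2, and 9 of those 16 genes were dim.

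**Figure D2:**
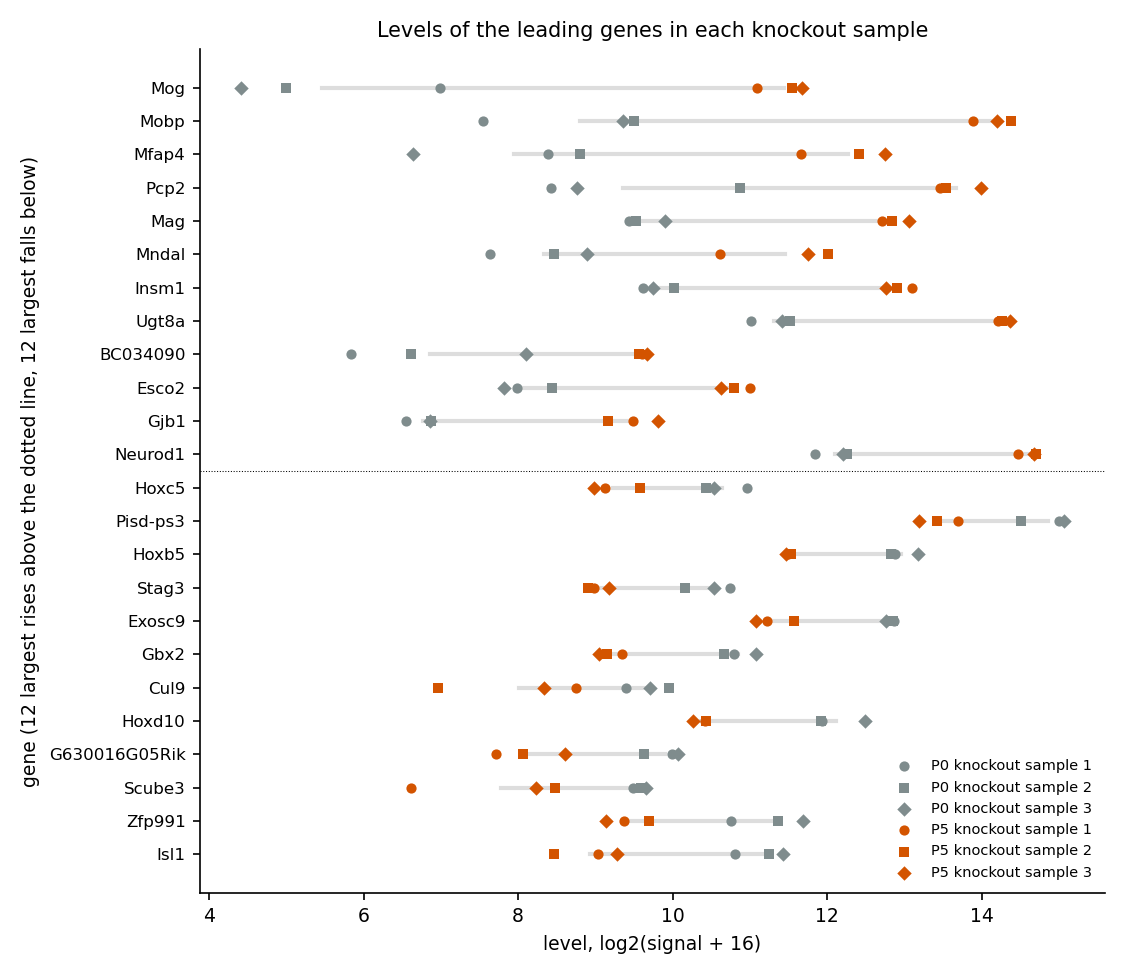
Levels, log2(signal + 16), are drawn for each knockout sample, grey for P0 and orange for P5. The genes are the 12 largest rises and 12 largest falls among called genes whose higher group mean was above 9.48. A symbol marks each sample number, and the main fit did not pair samples by number. The line joins the group means, and no gene has overlapping ages, though Mog, Mfap4 and BC034090 have widely spread P0 samples.

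Genes of cell division rose together. Mki67, a protein of the surface of mitotic chromosomes, read 11.41, 11.66 and 11.37 in the P0 samples and 13.54, 13.79 and 13.55 at P5. Each group spanned under 0.5, and the difference was 2.15 (SE 0.14, 4.44-fold, limma adjusted p = 1.8e-06). Top2a, the topoisomerase that untangles sister chromatids, went from 11.32, 11.83 and 11.25 to 13.62, 13.79 and 13.57 (4.56-fold, limma adjusted p = 2.11e-06). The 2 other probe sets of Top2a had smaller differences, 0.152 and 1.007, and 1 of them was called. Cenpf, a protein of the outer kinetochore, read 9.97, 10.43 and 10.47 and then 12.22, 12.18 and 12.14 (3.70-fold, limma adjusted p = 8.89e-05). Smc2, a core subunit of condensin, which compacts chromosomes, rose 2.67-fold from 11.54, 11.76 and 11.85 to 13, 13.25 and 13.15 (limma adjusted p = 3.39e-05). Esco2, an acetyltransferase that establishes cohesion between sister chromatids, was dim at P0 (7.98, 8.44 and 7.82) and read 11.00, 10.80 and 10.63 at P5.

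Of 37 genes of mitosis, kinetochore and cohesion, 33 were called higher and 0 lower, and all 37 had positive differences, from 0.29 to 2.40. The median was 1.49, and 27 to 34 members were called under the alternatives. The list's mean level was 10.10, 10.53 and 10.52 at P0, with sample 1 lowest, and 11.70, 11.95 and 11.88 at P5.

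DNA replication genes had smaller differences, with 17 of 33 called higher. Mcm7, a subunit of the replicative helicase, went from 12.82, 13.18 and 13.03 to 14.14, 14.35 and 14.34, a 2.41-fold difference (limma adjusted p = 3.86e-05) shared by all 3 of its other probe sets. Mcm5, of the same helicase, read 11.63, 12.10 and 11.82 and then 12.99, 13.17 and 13.20 (2.41-fold, limma adjusted p = 0.000108). The other probe sets of Mcm5 had differences of -0.03 and 1.14. Uhrf1, which carries DNA methylation over to new strands, rose 4.87-fold from 9.30, 10.63 and 9.94 to 12.02, 12.22 and 12.49 (limma adjusted p = 0.000248). Rrm2, a subunit of the enzyme that makes deoxynucleotides, rose 2.62-fold (limma adjusted p = 0.000343). In this list 0 genes were called lower, and the median was 0.89. Without P5 knockout sample 2 or 3 the count was 8 and 9.

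Since these genes moved together, the letters before their start sites were read. In background, many genes of mitosis carry a CCAAT box and a cell cycle homology region (CHR), and many genes of replication carry E2F sites. The 150 bases before the start are shown for the 3 mitosis genes with the smallest p that held both elements there. They are given 5′ to 3′ along the gene, from RefSeq on GRCm38.p6, with the CHR (TTTGAA or TTCGAA) and the CCAAT box in capitals on either strand.
Mki67, chr7:135716380-135716529, minus strand: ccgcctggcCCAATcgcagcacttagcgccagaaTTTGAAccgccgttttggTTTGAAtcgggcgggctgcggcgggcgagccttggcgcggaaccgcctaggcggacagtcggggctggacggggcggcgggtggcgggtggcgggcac
Top2a, chr11:99024190-99024339, minus strand: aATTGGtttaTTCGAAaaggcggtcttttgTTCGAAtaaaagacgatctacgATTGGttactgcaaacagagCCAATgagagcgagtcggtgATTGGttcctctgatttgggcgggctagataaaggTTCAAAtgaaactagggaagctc
Smc2, chr4:52439071-52439220, plus strand: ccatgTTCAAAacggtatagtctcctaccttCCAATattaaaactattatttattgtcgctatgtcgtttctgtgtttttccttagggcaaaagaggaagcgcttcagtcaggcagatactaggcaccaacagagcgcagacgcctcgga
For replication, the 2 genes with the smallest p that held an E2F element (TTTCCCGC, TTTGGCGC, TTTCGCGC or TTTGCCGC, either strand) are shown in the same way, with that element in capitals.
Mcm5, chr8:75109359-75109508, plus strand: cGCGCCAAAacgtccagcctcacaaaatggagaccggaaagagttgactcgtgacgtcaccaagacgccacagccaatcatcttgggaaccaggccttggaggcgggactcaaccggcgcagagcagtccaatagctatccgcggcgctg
Cdc6, chr11:98908001-98908150, plus strand: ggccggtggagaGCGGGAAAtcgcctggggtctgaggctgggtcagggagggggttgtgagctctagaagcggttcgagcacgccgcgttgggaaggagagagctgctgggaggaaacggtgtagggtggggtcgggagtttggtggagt
Over the 250 bases before the start, 13 of the 27 called mitosis genes with a RefSeq promoter held a CHR (48.1%), against 15.7% of the 14452 genes read that have one. The CCAAT box was found in 22 of the 27 (81.5%) against 39.4%, and both elements in 12 (44.4%) against 5.78%. The E2F element was found in 6 of the 15 called replication genes with a promoter (40%) against 3.15% of all, and in 2 of the 27 mitosis genes (7.41%). The CHR was found in 1 of the 15 replication genes (6.67%) and the CCAAT box in 9 of them (60%). Of the 412 genes called higher that have a promoter, 53.9% held a CCAAT box and 21.6% a CHR. Both elements were in 14.1% of them and the E2F element in 6.8%. These are matches of letters and not sites shown to be bound.

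Genes of the cerebellar granule cell lineage rose along with those of division. Neurod1, a transcription factor of differentiating granule cells, read 11.84, 12.26 and 12.20 at P0 and 14.47, 14.70 and 14.68 at P5. The gap between the ages was over 2 units and each group spanned under 0.5, with a difference of 2.52 (SE 0.19, 5.73-fold, limma adjusted p = 5.97e-06). Atoh1, which marks the dividing granule cell precursors, went from 9.07, 8.99 and 8.68 to 10.58, 10.99 and 10.92 (3.78-fold, limma adjusted p = 9.11e-05). Pax6, present in precursors and young granule cells, rose 4.05-fold from 11.12, 11.03 and 11.42 to 13.08, 13.30 and 13.25 (limma adjusted p = 5.65e-06). It was called by 1 of its 4 other probe sets. Nfib, a nuclear factor of granule cell maturation, rose 2.14-fold (limma adjusted p = 0.000166), and all 6 of its other probe sets were called higher. Insm1, a zinc finger factor of newly formed neurons and their precursors, rose 8.75-fold, from 9.62, 10.02 and 9.75 to 13.10, 12.91 and 12.76 (limma adjusted p = 1.4e-05).

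Of 20 granule lineage genes, 12 were called higher and 0 lower, with a median of 0.86. Without P5 knockout sample 2 the count was 7. The lowest value, -0.19, belonged to Meis1, which was not called and was named after its values were seen. Gabra6, the GABA receptor subunit of mature granule cells, was dim at P0 (7.44, 8.59 and 8.33) and read 8.84, 10.14 and 9.62 at P5, with an adjusted p of 0.195 in limma.

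Sonic hedgehog pathway genes, which act on granule cell precursors, had 4 of 13 called higher and 0 lower, with a median of 0.53. Gli2, an activating transcription factor of the pathway, read 9.56, 8.97 and 9.88 at P0 and 11.27, 11.65 and 11.31 at P5 (3.83-fold, limma adjusted p = 0.000228). Ccnd1, a cyclin induced by the pathway, rose 2.80-fold from 11.36, 12.14 and 11.34 to 13.05, 12.98 and 13.26 (limma adjusted p = 0.00681). Hhip, which binds the ligand and damps the signal, rose 2.07-fold (limma adjusted p = 0.00979). Sufu, a restrainer of the Gli factors, rose 1.83-fold (limma adjusted p = 0.0188), but its other probe sets had differences of -0.50 and 0.07, and the mean of all 3 gave 0.15 (limma adjusted p = 0.88). Without P5 knockout sample 1 the count was 2. The ligand gene Shh had a difference of -0.42 and its receptor gene Ptch1 one of 0.20, neither called, and both were named after their values were seen.

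Purkinje cell genes moved in both directions. Pcp2, a modulator of G protein signalling found in Purkinje cells, read 8.43, 10.87 and 8.77 at P0 and 13.46, 13.54 and 13.99 at P5. P0 sample 2 stood over 2 units above the other P0 samples and still under all P5 samples, and the difference was 4.31 (SE 0.46, 19.8-fold, limma adjusted p = 0.000106). Calb1, their calcium buffer, rose 3.30-fold from 12.90, 13.05 and 13.16 to 14.56, 14.99 and 14.71 (limma adjusted p = 5.79e-05), with all 3 other probe sets called. Car8, an inhibitor of the inositol trisphosphate receptor, went from 12.61, 13.06 and 12.17 to 14.44, 14.49 and 14.41 (3.56-fold, limma adjusted p = 0.000146). Ebf2, a transcription factor of a subset of Purkinje cells and of other hindbrain neurons, fell 2.05-fold from 11.99, 11.87 and 12.03 to 10.95, 11.03 and 10.81 (limma adjusted p = 0.000573). Of 14 genes, 4 were called higher and 1 lower, with a median of 0.32. The median was 0.16 without P0 knockout sample 1, 0.52 without P0 knockout sample 3 and 0.19 with Y-linked signal as a covariate.

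**Figure D3:**
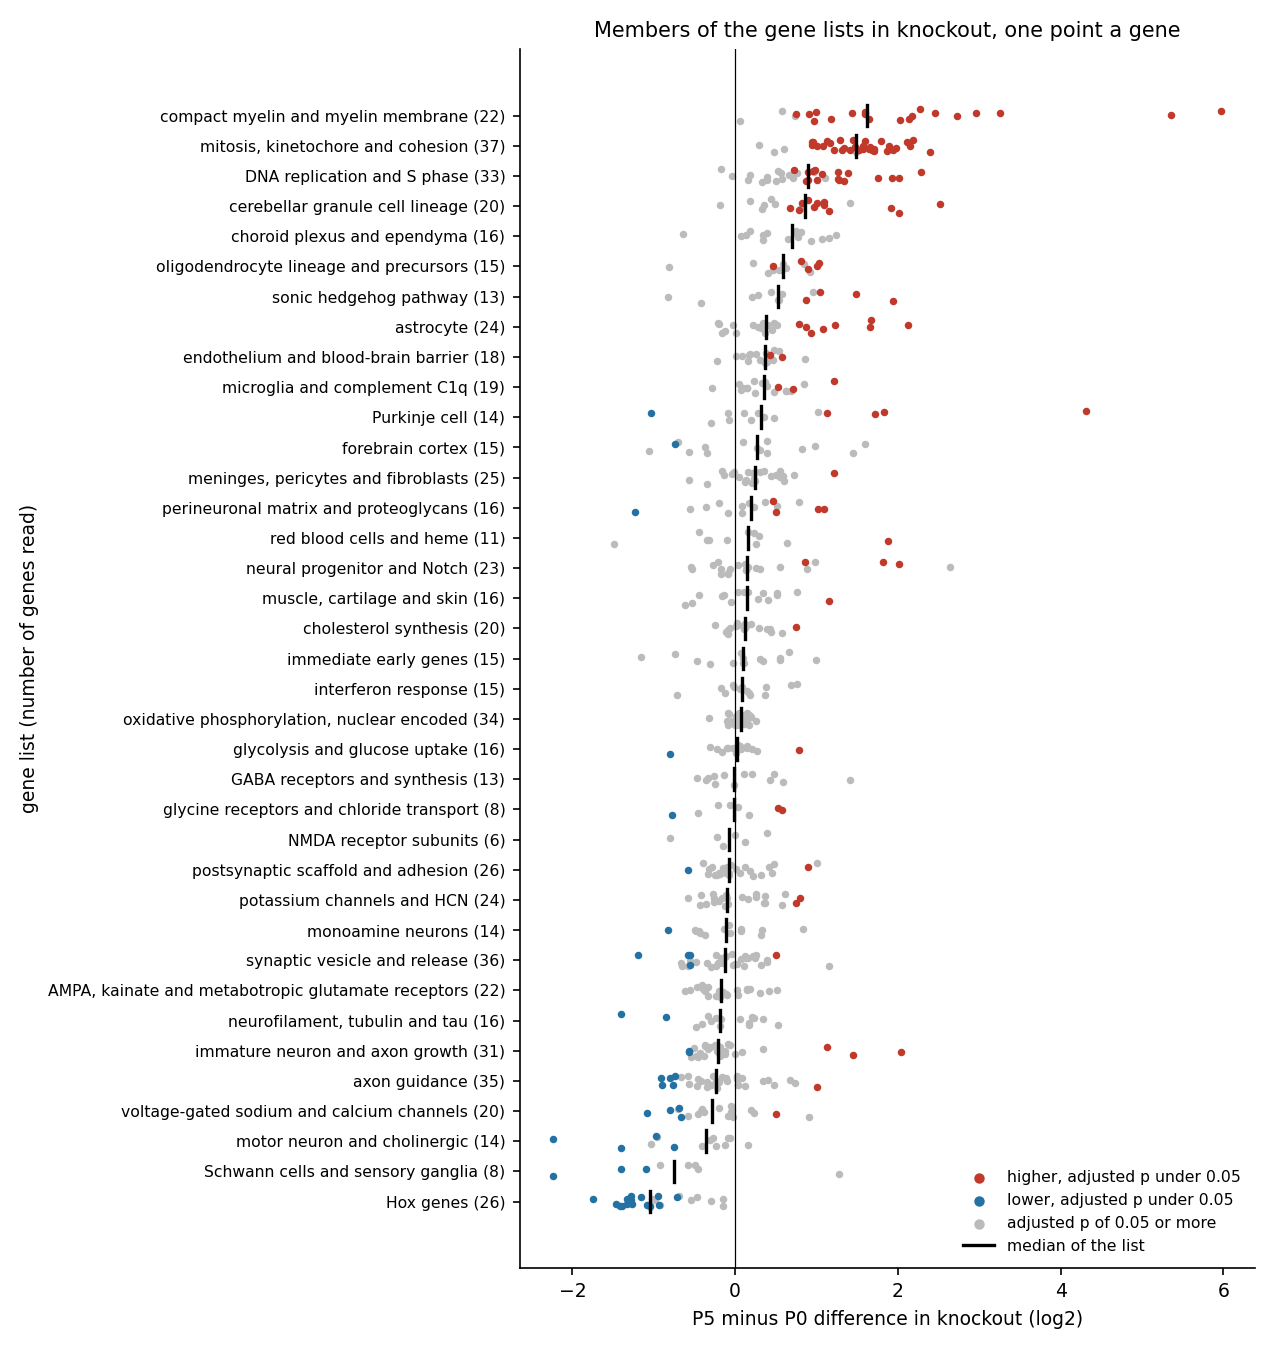
Each point is a gene of a list, placed by its P5 minus P0 difference in knockout (log2), with the list's median as a black bar and the number of genes read in brackets, in order of the median. Myelin (median 1.62), mitosis (1.49), DNA replication (0.89) and granule cell lineage (0.86) lie at the top and Hox genes (-1.04) at the bottom, while most receptor and synapse lists centre near 0.

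Progenitor genes gave few calls by number, though a larger share than the 2.86% of all genes called higher. In the list of neural progenitor and Notch genes, 3 of 23 were called higher and 0 lower, with a median of 0.14. These were Pax6, Neurog2 and Hey1. Neurog2, a proneural factor, was dim at P0 (7.58, 7.42 and 7.97) and read 9.65, 9.46 and 9.30 at P5 (3.52-fold, limma adjusted p = 0.00236). Hey1, an effector of Notch, rose 1.82-fold from 11.29, 11.56 and 11.87 to 12.42, 12.41 and 12.49 (limma adjusted p = 0.00612).

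Hox genes formed the group with the lowest median. Hoxd10, a gene of lumbar levels of the cord, read 11.93, 11.93 and 12.49 in the P0 samples and 10.41, 10.44 and 10.26 at P5. The P5 samples lay within 0.2 of each other and the P0 samples more than 1.4 above them, a 3.35-fold lower level at P5 (limma adjusted p = 0.00022). Hoxb5, of cervical levels, fell 2.75-fold from 12.87, 12.82 and 13.18 to 11.49, 11.54 and 11.47 (limma adjusted p = 6.02e-05). Hoxc4, also of cervical levels, read 12.66, 12.41 and 12.61 and then 11.23, 11.17 and 11.11 (2.62-fold lower, limma adjusted p = 0.000271). Hoxd3, which reaches further forward, fell 2.51-fold from 12.10, 11.37 and 11.69 to 10.34, 10.26 and 10.57 (limma adjusted p = 0.00123). Hoxc5 fell 2.66-fold (limma adjusted p = 0.00526), and none of its other probe sets was called.

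Of 26 Hox genes read, 15 were called lower and 0 higher, and all 26 differences were negative, from -1.74 to -0.15, with a median of -1.04. The median was -1.04 in paralog groups 1 to 3 (7 genes), -1.0 in groups 4 to 7 (10 genes) and -1.04 in groups 8 to 10 (9 genes), with 5 genes called in each of these 3 sets. By cluster, 6 of 7 HoxA, 4 of 8 HoxB, 2 of 6 HoxC and 3 of 5 HoxD genes were called. The list's mean level was 10.87, 10.82 and 11.28 at P0, with sample 3 highest, and 10.10, 9.91 and 9.99 at P5. The count of 15 was 7 without P0 knockout sample 3, 6 without P5 knockout sample 2 and 8 without P5 knockout sample 3, while the median stayed between -1.13 and -0.86 over all alternatives. Genes of the cerebellum, which forms in front of the Hox domain, rose in the same samples (12 of 20 granule lineage genes). The share of cord and cerebellum in each sample was not measured, and its part in the fall was not tested.

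Some genes of motor and sensory neurons were lower at P5, 4 of 14 in one list and 3 of 8 in another, with Isl1 and Prph in both. Isl1, a transcription factor of motor and sensory neurons, read 10.81, 11.25 and 11.42 at P0 and 9.03, 8.47 and 9.29 at P5. No P5 sample came within 1.5 of a P0 sample, and the 4.70-fold fall (limma adjusted p = 0.000101) was also called by its other probe set. Prph, an intermediate filament of neurons that project out of the central nervous system, fell 2.65-fold from 12.26, 12.71 and 12.78 to 11.01, 11.05 and 11.47 (limma adjusted p = 0.00134). None of its 3 other probe sets was called. Slc18a3, which loads acetylcholine into vesicles, read 10.70, 10.35 and 11.13 and then 9.49, 9.83 and 9.97 (1.95-fold lower, limma adjusted p = 0.0215). Ret, a receptor for survival factors of motor neurons, fell 1.69-fold (limma adjusted p = 0.0165).

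In the motor neuron and cholinergic list, 4 of 14 genes were called lower and 0 higher, with a median of -0.36. The count was 2 without P0 knockout sample 1 or 3 or without P5 knockout sample 1 or 2. Chat, the enzyme that makes acetylcholine and the defining gene of the list, read 8.60, 8.64 and 8.78 and then 8.44, 8.81 and 8.60, a difference of -0.06. It was named after its values were seen. Of 8 genes of Schwann cells and sensory ganglia, 3 were called lower. Beside Isl1 and Prph the third was Pou4f1, a factor of sensory neurons and some hindbrain nuclei, which fell 2.13-fold from 11.75, 11.67 and 11.98 to 11.21, 10.40 and 10.53 (limma adjusted p = 0.00542). Without P0 wild-type sample 2 the count was 5. Sensory ganglia attached to the cord would carry the same genes, and their part in the fall was not tested.

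**Figure D4:**
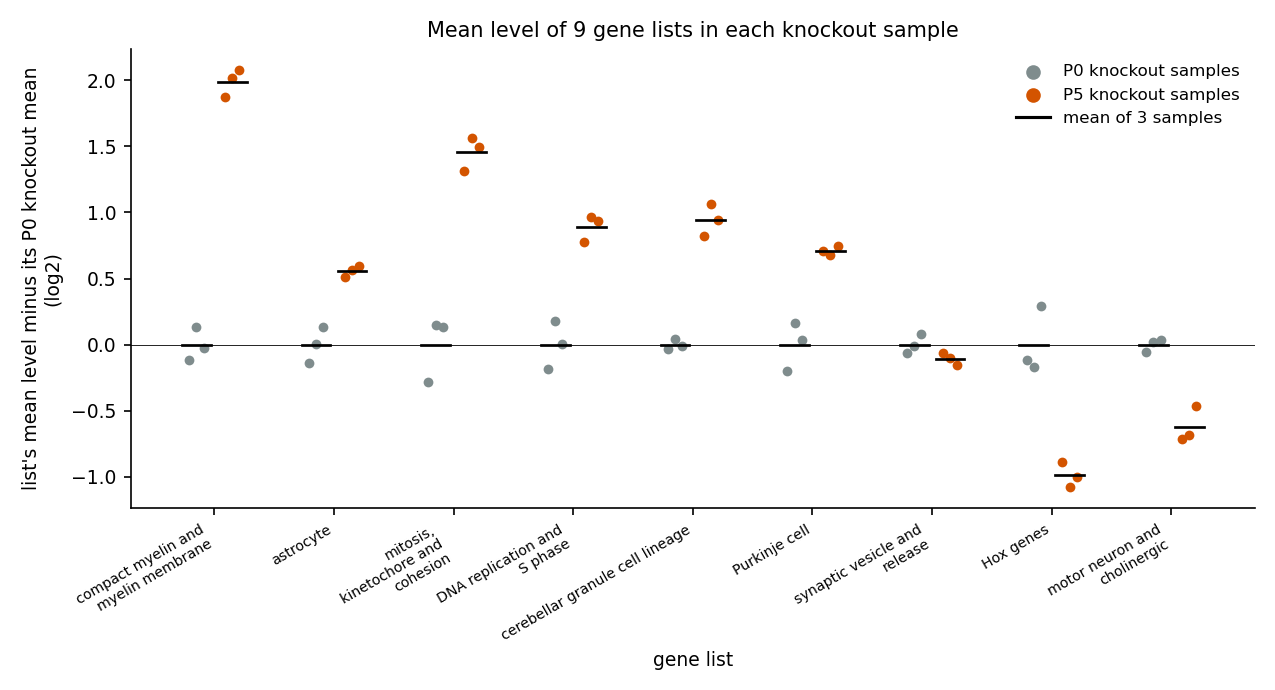
Mean level of 9 gene lists in each knockout sample, as the difference (log2) from that list's mean in the 3 P0 knockout samples, with black bars for the mean of 3 samples. The ages are apart in every list drawn except synaptic vesicle and release, whose P0 values run from 13.19 to 13.33 and P5 values from 13.10 to 13.19 before the P0 mean is taken off.

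The other large falls belonged to no list. Gbx2, a transcription factor of the anterior hindbrain, read 10.80, 10.66 and 11.08 at P0 and 9.34, 9.15 and 9.04 at P5 (3.18-fold lower, limma adjusted p = 0.000861). Exosc9, a subunit of the RNA exosome, fell 2.91-fold from 12.87, 12.86 and 12.77 to 11.22, 11.57 and 11.07 (limma adjusted p = 0.000252). Stag3, a cohesin subunit known from meiosis, fell 2.75-fold (limma adjusted p = 0.0014). The pseudogene Pisd-ps3 fell 2.69-fold (limma adjusted p = 0.00166), and transcripts of near copies may bind its probes. Zfp991, a zinc finger gene with close relatives, fell 3.66-fold and Scube3, a secreted protein, 3.48-fold. Cul9, a cullin, fell 3.19-fold, with P5 sample 2 at 6.96 against 8.75 and 8.34 in the other P5 samples. For Zfp991, Cul9 and G630016G05Rik no other probe set was called, and Scube3 has none. One other probe set of Zfp991 and the other of Cul9 had positive differences, 0.59 and 0.41, and Scube3 was called in 10 of the 23 alternatives.

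Of the remaining large rises, Mfap4, a protein of elastic fibres, read 8.39, 8.80 and 6.64 at P0 and 11.66, 12.42 and 12.75 at P5 (20.2-fold, limma adjusted p = 0.000581). Mndal, an interferon-inducible nuclear protein, rose 8.75-fold from 7.63, 8.47 and 8.89 to 10.61, 12.01 and 11.75 (limma adjusted p = 0.000728). Both had wide P0 spreads reaching into dim values. The interferon list, which does not hold Mndal, had 0 of 15 genes called and a median of 0.08.

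Most genes of young neurons and their axons had small negative differences, while a few rose. In the list of immature neuron and axon growth genes, 2 of 31 were called lower and 3 higher, with 25 of 31 differences negative and a median of -0.21. With 1 knockout sample left out the lower count was 1 for P0 sample 1 and 0 for each of the other 5. With 1 wild-type sample left out it was 5 for P0 sample 1 or 2, 1 for P5 sample 1 and 0 for P5 sample 2 or 3. It was also 0 with the replicate block, and the median was -0.12 without P0 knockout sample 1. Dpysl5, a cytoplasmic regulator of neurite growth, fell 1.48-fold (limma adjusted p = 0.0376). Igfbpl1 rose 4.12-fold from 9.50, 10.44 and 9.17 to 11.41, 11.93 and 11.91 (limma adjusted p = 0.000888), and the helix-loop-helix factors Nhlh1 and Nhlh2, of newly formed neurons, rose 2.74-fold and 2.18-fold (limma adjusted p = 0.000528 and 0.0004).

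Among 35 axon guidance genes, 5 were called lower and 1 higher, with a median of -0.23. Sema3c, a secreted semaphorin, read 13.20, 13.08 and 13.29 and then 12.34, 12.14 and 12.35 (1.89-fold lower, limma adjusted p = 0.000835). Nrp2, a receptor for semaphorins, fell 1.87-fold, and Ntn1, the attractant of the floor plate, fell 1.70-fold (limma adjusted p = 0.00136 and 0.0056). Unc5c, a netrin receptor that granule cells also carry, rose 2.01-fold from 11.28, 11.61 and 12.01 to 12.60, 12.62 and 12.70 (limma adjusted p = 0.00626). The lower count was 3 without P5 knockout sample 2 or 3, and the median was -0.15 without P0 knockout sample 3. Neurofilament, tubulin and tau genes had 2 of 16 called lower, Prph and Map6, a stabiliser of microtubules that fell 1.80-fold (limma adjusted p = 0.0159). The other probe set of Map6 had a difference of 0.23, and the mean of both gave -0.31 (limma adjusted p = 0.158). The count was 1 when P5 knockout sample 2 or 3, or P0 knockout sample 2, was left out.

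Synaptic genes as groups stayed near the median of all genes. Of 36 genes of synaptic vesicles and release, 4 were called lower and 1 higher, with a median of -0.12. Sncg, a synuclein abundant in motor and sensory neurons, fell 2.29-fold from 12.75, 13.47 and 13.41 to 11.93, 12.10 and 12.02 (limma adjusted p = 0.0144). Syt4, a synaptotagmin, and Syn3, a synapsin, fell 1.47-fold and 1.5-fold, and Sypl, a relative of synaptophysin found in many cell types, rose 1.42-fold, though 1 of its 6 other probe sets was called and they ran from -0.32 to 0.85. The higher call was lost without P0 knockout sample 2 or 3 or any P5 knockout sample. The lower count was 0 when P0 knockout sample 3 or P5 knockout sample 2 or 3 was left out, and 1 when any of the other 3 knockout samples was. Of 26 postsynaptic genes, Homer2, a scaffold protein, rose 1.86-fold (limma adjusted p = 0.00856) and Nlgn3, a neuroligin, fell 1.49-fold (limma adjusted p = 0.0411). Nlgn3 was called in 9 of the 23 alternatives, and not without P0 knockout sample 1 or 3, any P5 knockout sample or any P5 wild-type sample.

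None of the 6 NMDA receptor subunits read was called, and their differences ran from -0.80 to 0.39. Grin2d, a subunit prominent around birth, read 10.77, 11.43 and 11.97 at P0 and 10.85, 10.33 and 10.60 at P5. P0 sample 1 lay under P5 sample 1, so the ages overlapped, and the difference of -0.80 (SE 0.26) had an adjusted p of 0.117 in limma. Without P0 knockout sample 1 the difference was -1.11 and called (limma adjusted p = 0.0177), and it was also called with array weights. Grin2b, the other subunit of early circuits, read 11.05, 11.03 and 10.53 and then 11.09, 10.76 and 10.77, a difference of 0.00 (SE 0.18). Grin3a, the relative of the removed subunit, read 12.19, 12.64 and 12.74 and then 12.49, 12.08 and 12.32 (difference -0.23, SE 0.21, limma adjusted p = 0.674). Grin2a and Grin2c, subunits of more mature neurons, were dim, between 6.61 and 8.60 in the knockout samples.

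Other receptors and channels gave few calls by number. Over all genes 2.86% were called higher and 1.91% lower. The lower calls among sodium and calcium channels, and all calls among glycine receptor and chloride transport genes, were larger shares than these. Among 22 AMPA, kainate and metabotropic glutamate receptor genes 0 were called, and among 13 genes of GABA receptors and synthesis 0 were called. Of 8 genes for glycine receptors and chloride transport, Glra2, the glycine receptor subunit of young neurons, fell 1.71-fold from 13.90, 13.45 and 13.85 to 12.88, 13.03 and 12.97 (limma adjusted p = 0.0101). Glrb, the subunit that anchors the receptor at synapses, rose 1.44-fold (limma adjusted p = 0.0421), and Slc12a2, a chloride importer, rose 1.49-fold (limma adjusted p = 0.0254). The higher count of 2 was 0 without P0 knockout sample 2 or 3 or any P5 knockout sample and with the replicate block, and 1 without P0 knockout sample 1 or any P5 wild-type sample. Glrb was called in 8 of the 23 alternatives, and the fall of Glra2 was not called without P5 knockout sample 1. Of 20 sodium and calcium channel genes, 4 were called lower and 1 higher, with a median of -0.29. Cacna1h, a low-threshold calcium channel, fell 2.11-fold from 11.24, 11.20 and 11.23 to 10.39, 10.05 and 10 (limma adjusted p = 0.00956). Scn3a, the sodium channel of embryonic neurons, fell 1.59-fold (limma adjusted p = 0.0149), and Scn2b, an auxiliary subunit, rose 1.41-fold (limma adjusted p = 0.0426). Scn2b was called in 9 of the 23 alternatives, its other probe sets ran from -0.32 to 0.24, and the mean of all 3 gave 0.14 (limma adjusted p = 0.847). Its call was lost without P0 knockout sample 1 or 3, P0 wild-type sample 3, any P5 knockout sample or any P5 wild-type sample. The lower count of channels was 0 without P5 knockout sample 2 or 3 and 2 without P0 knockout sample 2 or 3. Of 24 potassium and HCN channel genes, Kcna1, an axonal channel, and Kcnk1, a leak channel, rose 1.67-fold and 1.74-fold (limma adjusted p = 0.0137 and 0.014), and 0 were called lower. The count was 0 without P5 knockout sample 2 or 3 and 4 without P0 knockout sample 3.

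Genes of the extracellular matrix of neurons were mixed. Hapln1, a link protein of perineuronal nets, rose 2.14-fold from 9.31, 9.07 and 9.71 to 10.49, 10.49 and 10.39 (limma adjusted p = 0.0123). Gpc2, a glypican of growing axons, fell 2.36-fold from 11.20, 11.07 and 10.93 to 9.78, 9.77 and 9.94 (limma adjusted p = 0.000581). In all 4 of 16 were called higher and 1 lower, and the higher count was 0 with P0 knockout sample 2 or P5 knockout sample 1 or 2 left out. Leaving out P5 knockout sample 3 or any P5 wild-type sample gave 1, and leaving out P0 knockout sample 1 or 3 gave 2. Among 16 genes of glucose use, Hk2, a hexokinase, rose 1.73-fold (limma adjusted p = 0.0191) and Pfkp, a phosphofructokinase, fell 1.74-fold (limma adjusted p = 0.014). The other probe sets of Pfkp had differences of -0.96 and 0.33, and the mean of all 3 gave -0.48 (limma adjusted p = 0.334). Neither gene was called without P0 knockout sample 1 or any P5 knockout sample, nor Hk2 without P0 knockout sample 2. Of 34 nuclear genes of oxidative phosphorylation 0 were called, with differences from -0.32 to 0.26. Immediate early genes had 0 of 15 called. Of 14 monoamine neuron genes 1 was called, Slc6a2, the noradrenaline transporter, which fell 1.77-fold (limma adjusted p = 0.0497), and of 15 forebrain cortex genes 1 was called, Bcl11b, a factor also found in spinal neurons, which fell 1.67-fold (limma adjusted p = 0.0308). Slc6a2 was called in 7 of the 23 alternatives, and of the knockout samples only P5 sample 3 could be left out without losing it. Bcl11b was not called without P0 knockout sample 1 or 3 or any P5 knockout sample.

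The change in knockout was set beside that in wild type, whose samples are separate. Both changes came from the same fit, with joint normalization and a shared estimate of spread for each gene. Calls shared by the genotypes are therefore not from independent tests. In wild type 901 genes were higher at P5 (4.95% of genes) and 619 lower (3.40%). Called in both genotypes in the same direction were 618 genes, which is 71.2% of those called in knockout and 40.7% of those called in wild type. Of the 868 knockout calls, 857 had the same sign in wild type. The genes called higher in knockout, chosen on the knockout samples, had a median difference of 1.01 there and 0.99 in wild type, and those called lower had -0.75 and -0.63. The genes called higher in wild type, chosen on the wild-type samples, had a median of 1.02 there and 0.71 in knockout, and those called lower had -0.70 and -0.49. The medians thus depended on which genotype chose the genes. Over all 18193 genes, which are not independent replicates, the differences in the genotypes had a Pearson's r of 0.447. Over the 12602 genes with a mean level at or above the mark for dim probe sets, r was 0.748. The genotype by age interaction, which tests whether the change differs between the genotypes, called 0 of 18193 genes (0%) in limma, with 860 at an unadjusted p under 0.05. The smallest adjusted p of the interaction was 0.838.

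**Figure D5:**
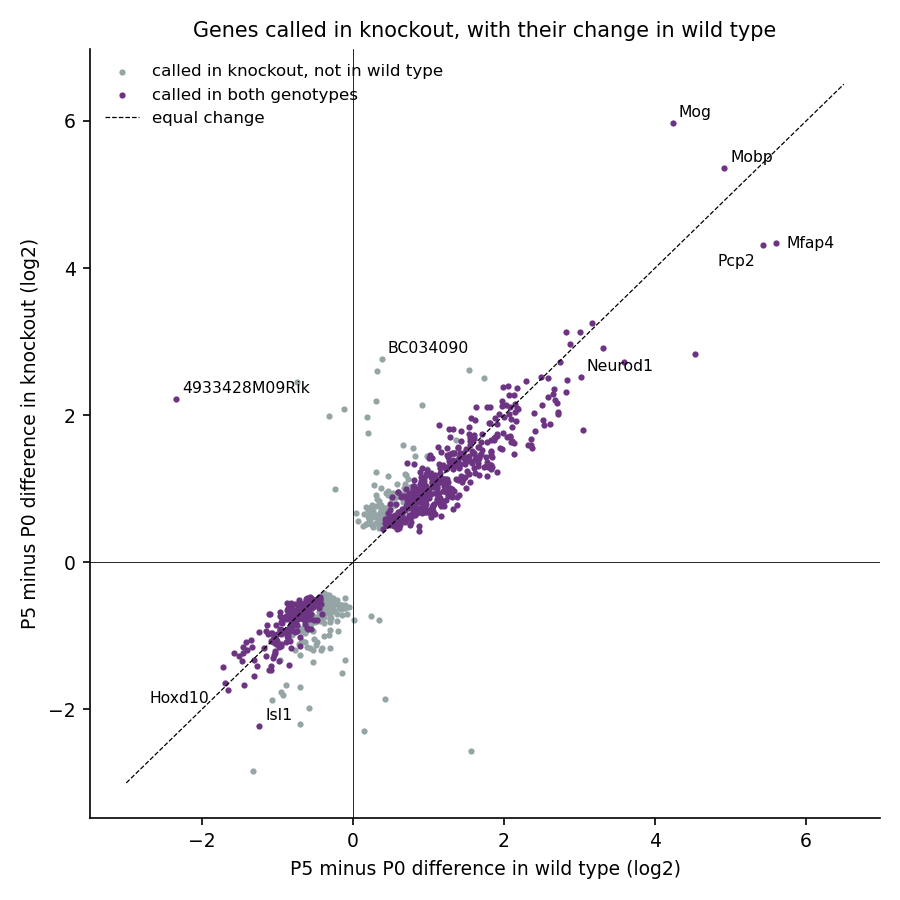
Each point is 1 of the 868 genes called in knockout, with its P5 minus P0 difference in wild type across and in knockout upward (both log2), purple where wild type was called too. The genes were chosen on the knockout samples, and the dashed line marks equal change. Of the points, 857 lie in the quadrants where both genotypes moved the same way.

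The genes furthest from equal change were dim in part. 4933428M09Rik, an X-linked transcript named after its values were seen, read 5.35, 5.36 and 5.21 and then 6.96, 7.63 and 7.996 in knockout, a difference of 2.22 against -2.34 in wild type. Its interaction p of 1.9e-05 became 0.838 after adjustment in limma, and all its knockout values were under the mark for dim probe sets. BC034090, among the 12 largest rises, read 5.84, 6.61 and 8.11 and then 9.61, 9.57 and 9.66, a difference of 2.76 against 0.38 in wild type (interaction in limma, adjusted p = 0.838). Pdpn, a membrane glycoprotein, also named after its values were seen, was bright and fell from 12.34, 12.61 and 12.81 to 11.68, 11.78 and 11.92, a difference of -0.79 against 0.35 in wild type (interaction in limma, adjusted p = 0.838).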

How the data were processed

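The authors deposited, in the series table, a linear intensity for each probe set. The sources used here do not name the software that made it. Trimmed by 2% at each end, the mean was 2500.01 on each array, so each had been scaled to a common mean. Of 45101 probe sets, 64 controls were left out. Of the other 45037, 34945 had 1 gene symbol in the platform annotation, 932 several and 9160 none, and 34741 symbols were found in RefSeq (GRCm38.p6) by gene ID with 0 changed. Probe sets with several symbols or none were not named, and list genes without a probe set of their own were not analysed here. Detection calls were not used, and the number of arrays limits the precision.

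Signals were transformed as log2(signal + 16) and then quantile-normalized, because the median log2 signals of the arrays spread over 0.272. One model with a mean for each of the 4 groups was fitted in R 4.3.3 (limma 3.58.1, with an intensity trend) over all 45037 probe sets and 12 samples (8 residual and 6.22 prior degrees of freedom). Wild-type samples entered to share the estimate of spread. Adjusted p-values are Benjamini-Hochberg over all probe sets. Folds are back-transformed log2 differences and understate the change of dim genes. On simulated data with 200 of 45037 probe sets changed, 31% of 2-fold and 67% of 4-fold changes in P5 minus P0 in knockout were recovered, with 8 false calls. The simulation gave all 4 groups the same spread, whereas the P0 samples here varied more than the P5 samples. It also changed fewer probe sets than the data had called (1004 higher and 573 lower). Its rates may therefore not hold for these data.

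The 38 lists hold 810 entries, of which 740 were read. The members and lists were chosen with earlier results of these data known. Genes named are Grin3b, the 12 largest rises and 12 largest falls among called genes with non-overlapping samples and a higher group mean above 9.48, up to 4 members per list by smallest p, up to 2 called against their list's direction, all NMDA subunits and the sex-linked list. All further genes in the text were picked with their values in view. Alternatives were other scalings, pseudocounts, a filter on dim probe sets, the mean of all probe sets of a gene, the 6 knockout samples fitted alone, a replicate block, no trend, array weights and leaving out each sample. A covariate for Y-linked signal was chosen after seeing the data. Promoters are RefSeq sequences before the annotated start. Figures were drawn with matplotlib 3.10.9.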

Additional observations from a re-analysis of the deposited data

Results flagged for a closer look

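Dlx2, a forebrain transcription factor gene, had differences of opposite sign in the genotypes, -1.06 in knockout and 0.39 in wild type, with samples that did not overlap between the ages in either. Neither was called (limma adjusted p = 0.137 and 0.59). In knockout it read 8.92, 8.08 and 8.27 at P0 and 7.27, 7.44 and 7.38 at P5, and the knockout change minus the wild-type change was -1.44. Most of its values were under 8.72, the level that 40% of probe sets lie under. The difference between the genotypes had an unadjusted interaction p of 0.012 and an adjusted p of 0.838 in limma, so it fails the correction.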

How the results depend on the processing

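Results were recomputed under 23 alternatives. Of 165 genes named by the rule, 99 were called, 54 of these in every alternative, and 0 of the called genes changed direction. Of the 99, 71 had another probe set, and for 13 at least 1 other probe set had a difference of opposite sign. The median of 23 of 38 lists moved by more than its spread between replicates under at least 1 alternative. Leaving out 1 sample in turn gave 264 to 701 genes higher and 115 to 580 lower in knockout, 646 to 3921 called in wild type and 0 called in the interaction. Without P5 knockout sample 2 both knockout counts were lowest, and without P0 wild-type sample 2 they were highest. With no intensity trend, 310 genes were higher and 123 lower in knockout, 658 were called in wild type and 1 gene, 4933428M09Rik, was called in the interaction (limma adjusted p = 0.0395). Array weights gave 590 lower genes in knockout and 3759 called in wild type, and a covariate for Y-linked signal, chosen after seeing the data, gave 814 called in wild type. The replicate block gave 415 higher and 226 lower in knockout. Samples with the same number had weakly related deviations (correlations of 0.16, 0.0 and 0.08 in knockout and of -0.05, 0.05 and 0.1 in wild type). These values cannot show whether such samples shared anything beyond a number, and the labels do not say. Fitted alone, the 6 knockout samples gave 396 higher and 268 lower genes, of which 612 were among the 868. The cause of these shifts was not tested. That fit gives no interaction or wild-type value. Dim probe sets at P0, as for Mog, limit the size of the largest rises.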

Other observations

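Outside the lists, 394 genes were called higher and 304 lower in knockout, and the genes named here were chosen after their values were seen. Several higher genes belong to the cerebellum. Ccnd2, a cyclin of dividing granule cell precursors, rose 4.97-fold from 12.07, 12.40 and 11.85 to 14.25, 14.52 and 14.47 (limma adjusted p = 1.02e-05). Zic5, a zinc finger factor of the dorsal neural tube and cerebellum, rose 4.26-fold and Cadps2, a secretion factor of granule cells, 2.93-fold (limma adjusted p = 3.49e-05 and 8.71e-05). Fat2, an atypical cadherin of granule cells, rose 5.18-fold from 6.8, 8.82 and 8.98 to 9.96, 10.90 and 10.86 (limma adjusted p = 0.0285). Ptf1a, a factor of the precursors of inhibitory neurons, was dim at P0 (7.93, 8.66 and 6.54) and read 9.95, 10.02 and 9.91 at P5. Glial genes were also among them: Gpr37l1, a receptor of astrocytes, rose 5.66-fold and Adamts4, a protease of oligodendrocytes, 5.73-fold (limma adjusted p = 1.66e-05 and 7.71e-05).

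Several of the lower genes outside the lists are transcription factors of dorsal spinal and hindbrain neurons. Lbx1, of inhibitory dorsal horn neurons, read 11.62, 11.32 and 11.90 at P0 and 10.49, 10.71 and 10.49 at P5 (2.07-fold lower, limma adjusted p = 0.0056). Prrxl1, of pain-relaying neurons, fell 2.15-fold from 11.47, 10.93 and 11.81 to 10.53, 10.24 and 10.13 (limma adjusted p = 0.0133). Pax8 fell 2.36-fold, Gbx1 2.55-fold and Lmx1b 1.92-fold (limma adjusted p = 0.00134, 0.0262 and 0.0421). The other probe set of Lmx1b had a positive difference, 0.43, and was not called. Pdyn, the precursor of dynorphin peptides of the dorsal horn, fell 2.24-fold from 10.27, 9.95 and 10.26 to 8.74, 9.27 and 8.96 (limma adjusted p = 0.0174). Hmga2, a chromatin protein of embryonic precursors, fell 2.06-fold (limma adjusted p = 0.0185) while the mitosis genes rose.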
